A study of Mus musculus with 18 samples.

Results

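The genes described here are the protein-coding genes that flank Irx3 on mouse chromosome 8. They were chosen by position: every protein-coding gene whose start is within 10 Mb of that of Irx3 in GENCODE M21 (GRCm38), with the Irx genes left out. The annotation holds 172 such genes, of which 168 are listed in the deposited tables. Of these, 137 reached at least 0.5 CPM (counts scaled by library totals) in 3 libraries, 128 of them in all 18 libraries and 9 in fewer. The CPM levels given below also use TMM factors. Over the whole genome 28563 genes are listed and 15347 passed the same filter.

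The series holds 18 polyA RNA-seq libraries made from E14.5 mouse ventricles, in a study of Irx3 and Irx4 in the developing ventricle. The labels name 6 libraries mutant for both genes (DKO 2, 3, 4, 5, 7 and 10), 3 mutant for Irx3 (Irx3KO 1, 2 and 4), 3 heterozygous for both (dHet 2, 3 and 4; Irx3+/-;Irx4+/-), 3 mutant for Irx4 (Irx4KO 2, 3 and 4) and 3 wild-type libraries (WT 1, 2 and 3). DKO and Irx3KO thus carry 2 mutant Irx3 alleles, dHet carries 1, and Irx4KO and WT carry 0. The labels give no strain, do not say what either mutation removes, and do not tie a library to an embryo; the p-values below reflect variation among libraries that might be partly technical. DKO 5, 7 and 10 were compared with WT (set 1), and the other 12 libraries were compared among themselves (set 2). The labels do not name these sets.

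Irx3 encodes an Iroquois homeobox transcription factor and shares a gene cluster with Irx5 and Irx6. A targeted chromosome passed on by breeding keeps the DNA around the target, so alleles of flanking genes can travel with a mutation, and an altered locus can also change the expression of neighbours on the same chromosome. Among the flanking genes, Bbs2 encodes a subunit of the BBSome, a complex that moves membrane proteins in and out of primary cilia. Mt1, Mt2, Mt3 and Mt4 encode metallothioneins, small cysteine-rich proteins that bind zinc and copper. Mt1 and Mt2 are switched on by metals and stress in most tissues, and Mt3 is best known from the brain.

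The results turn on a stretch 2.27 to 2.38 Mb from Irx3 that holds Bbs2, Mt3, Mt2 and Mt1 in this order, by leftmost coordinate in GRCm38 (the deposited tables hold no coordinates). Bbs2 lies at chr8:94067954-94098928 on the minus strand. On the plus strand, Mt3 lies at chr8:94152607-94154146, Mt2 at chr8:94172664-94173568 and Mt1 at chr8:94179082-94180327. Their promoters are shown because the fitted changes of Mt2 and Mt1 had the opposite sign to those of Mt3 and Bbs2. Each is the 250 bases before the RefSeq start (GRCm38.p6), 5′ to 3′ on the gene's own strand, at chr8:94098510-94098759 (minus) for Bbs2 and, on the plus strand, chr8:94152357-94152606 for Mt3, chr8:94172368-94172617 for Mt2 and chr8:94178839-94179088 for Mt1. Capitals mark matches on either strand to TGCACNC or TGCGCNC, the core letters of the metal response element at metallothionein genes.
Bbs2: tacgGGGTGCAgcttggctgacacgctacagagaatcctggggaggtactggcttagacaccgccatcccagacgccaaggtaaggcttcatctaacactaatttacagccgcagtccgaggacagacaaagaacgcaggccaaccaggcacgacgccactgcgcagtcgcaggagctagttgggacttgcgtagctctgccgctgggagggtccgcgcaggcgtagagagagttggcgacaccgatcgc
Mt3: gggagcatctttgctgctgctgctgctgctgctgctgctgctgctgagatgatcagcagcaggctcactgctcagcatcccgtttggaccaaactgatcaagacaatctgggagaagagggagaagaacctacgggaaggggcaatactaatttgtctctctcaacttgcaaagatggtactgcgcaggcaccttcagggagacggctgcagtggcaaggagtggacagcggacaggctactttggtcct
Mt2: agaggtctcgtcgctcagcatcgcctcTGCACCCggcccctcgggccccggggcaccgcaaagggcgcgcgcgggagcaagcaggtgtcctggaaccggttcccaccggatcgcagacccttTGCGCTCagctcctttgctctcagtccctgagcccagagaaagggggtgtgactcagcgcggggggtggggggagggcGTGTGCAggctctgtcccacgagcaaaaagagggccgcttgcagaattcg
Mt1: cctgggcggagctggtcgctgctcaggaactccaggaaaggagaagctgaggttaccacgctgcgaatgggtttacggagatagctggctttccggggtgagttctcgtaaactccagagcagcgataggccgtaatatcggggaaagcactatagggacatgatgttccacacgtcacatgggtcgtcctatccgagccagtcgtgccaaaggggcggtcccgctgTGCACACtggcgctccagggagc
The letters occur 3 times before Mt2, 1 time before Mt1, 1 time before Bbs2 and 0 times before Mt3. Of 32851 promoter windows of this length, 21.4% hold at least 1 match and 1.26% hold at least 3. A match describes the letters and is not shown to be a bound site. The windows follow RefSeq starts: that of Bbs2 lies inside the GENCODE span given above, and that of Mt1 ends past its GENCODE start. Matches outside these windows are not counted, so the numbers do not describe a whole promoter.

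Irx3 followed its labels in every library. It stood at 3.15, 4.27 and 3.78 CPM in DKO 5, 7 and 10, against 22, 23.9 and 28.4 CPM in WT 1, 2 and 3. Set 2 had 3.31, 3.83 and 3.85 CPM in DKO 2, 3 and 4, 2.82, 3.13 and 2.58 CPM in Irx3KO, 12.9, 13.2 and 13.4 CPM in dHet, and 22.3, 26.3 and 26.5 CPM in Irx4KO. Libraries with 2, 1 and 0 mutant alleles did not overlap. The summed counts of Irx4 were not lower where Irx4 is labelled mutant: they were 215 to 279 CPM in DKO 5, 7 and 10, against 78.4 to 125 CPM in WT. In set 2 they were 223 to 236 CPM in DKO, 217 to 240.0 CPM in Irx4KO and 177 to 191 CPM in dHet, against 136 to 158 CPM in Irx3KO, and so were higher with more labelled mutant Irx4 alleles. What part of Irx4 is removed is not given, so this sum does not check the Irx4 labels, and genotypes below are as labelled. Irx5 had log2 fold changes of -0.10 in set 1 and -0.18 in set 2 (adjusted p = 0.76 and 0.64), and Irx6 had 0.92 and 1.02 (adjusted p = 0.22 and 0.29). Markers of ventricular muscle summed to between 24500.0 and 29700.0 CPM in every library, and 6 of 6 were found. Of these, 1 was called in set 1, where 1.58% of all genes were called, and 0 in set 2, against 0.0261%. DKO 5 stood apart within set 1: the chi-square per gene between libraries was 65.7 to DKO 7 and 63.9 to DKO 10, against 28.5 between DKO 7 and DKO 10, and its trend with transcript length was the steepest (Spearman's rho -0.459, across genes). All 5 calls of set 1 given below stood without it.

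Few of the 137 flanking genes were called in either set, and Bbs2 was the one called in both. In set 1 DKO and WT differ in the labels of both Irx3 and Irx4, whose parts cannot be told apart there. In set 2 the Irx4 labels also differ between groups, except between DKO and Irx4KO. In DKO 5, 7 and 10 against WT, edgeR's quasi-likelihood test over all 15347 genes called 5 of 137 at an adjusted p under 0.05, where 1.58% of all genes were called. Mt3, Bbs2, Calr and Mylk3 were higher in DKO (4 of 137, against 0.684% of all genes) and Rnf150 was lower (1 of 137, against 0.899%). In set 2, the 6 libraries with 2 mutant alleles against the other 6 gave 2 calls of 137, against 0.0261% of all genes. Bbs2 was higher there (against 0.00652% of all genes called higher) and Adgre5 was lower (against 0.0195% called lower). Only 4 genes were called in the whole genome in that comparison, Irx3 among them. In bulk RNA, fewer cells of a type and less RNA per cell cannot be told apart. The rise of Mt3 and Bbs2 in DKO against WT was already known from these data when the genes were chosen, so set 1 is no independent support for it.

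**Figure D1:**
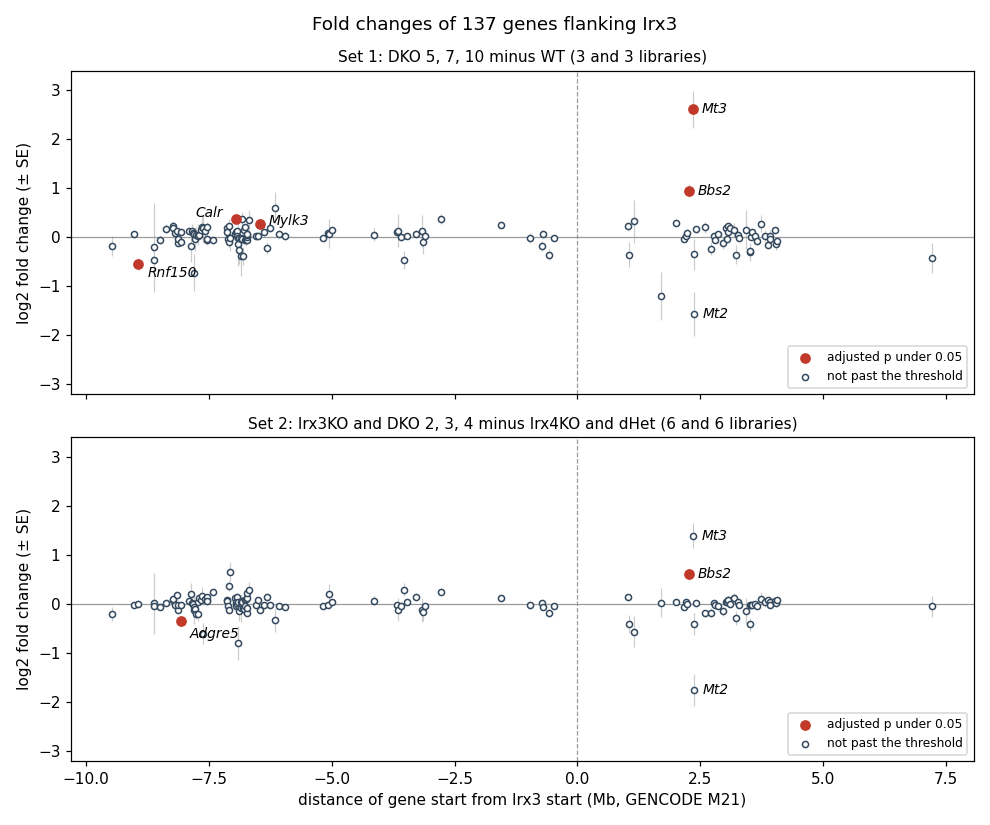
Log2 fold change (± SE, edgeR) of each of the 137 flanking genes by the distance of its start from that of Irx3 in Mb, in set 1 (DKO 5, 7, 10 minus WT, upper panel) and set 2 (Irx3KO and DKO 2, 3, 4 minus Irx4KO and dHet, lower panel); colour marks an adjusted p under 0.05. Mt3 (2.61 and 1.40) lies highest and Mt2 (-1.57 and -1.76) lowest in both panels, 2.35 and 2.37 Mb from Irx3.

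Mt3 was low in every WT and Irx4KO library and higher in every library with 2 mutant Irx3 alleles. Its level was 7.82, 7.42 and 5.71 CPM in DKO 5, 7 and 10, against 1.77, 0.645 and 1.00 CPM in WT 1, 2 and 3. In set 2 it was 5.63, 6.51 and 5.32 CPM in DKO 2, 3 and 4, 3.86, 4.07 and 4.81 CPM in Irx3KO 1, 2 and 4, 3.89, 3.52 and 1.89 CPM in dHet 2, 3 and 4, and 0.785, 0.729 and 1.93 CPM in Irx4KO 2, 3 and 4. Homozygous mutants did not overlap WT or Irx4KO, while dHet 2 reached the range of Irx3KO and dHet 4 lay within that of Irx4KO. The log2 fold change was 2.61 ± 0.37 (SE) in set 1, a 6.11-fold difference (adjusted p = 0.0022), and stayed past the threshold without each of the 18 libraries in turn. In set 2 it was 1.40 ± 0.25, or 2.63-fold, which missed the threshold with edgeR (adjusted p = 0.086) and passed it with DESeq2 (adjusted p = 2.1e-05).

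With dHet left out of set 2, a comparison added after the levels were seen, Irx3KO and DKO 2, 3 and 4 were set against Irx4KO alone. This gave 5 calls of 137, against 0.0847% of all genes: Bbs2, Mt3 and Cacna1a higher (3 of 137, against 0.0326%) and Mt2 and Adgre5 lower (2 of 137, against 0.0521%). Mt3 then had a log2 fold change of 2.12 ± 0.34 (adjusted p = 0.025). Its call was lost without any 1 of DKO 3, Irx3KO 1, 2 or 4, or Irx4KO 2 or 3 (adjusted p up to 0.25). Markers of neural crest and neurons, where Mt3 is known to be expressed, summed to 33.4 to 40.7 CPM in DKO 5, 7 and 10 against 23.7 to 27.2 CPM in WT. Of the 6 tested, 2 were called, against 1.58% of all genes. In set 2 their sums were 27.8 to 33.7 CPM in DKO and 26.5 to 29.1 CPM in Irx3KO, against 21.4 to 28.9 CPM in dHet and 28.5 to 31.3 CPM in Irx4KO, with 0 called. All 8 were found, and their part in the rise of Mt3 in set 1 was not tested.

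Bbs2 was nearly 2-fold higher in the same libraries. It stood at 18.2, 13.4 and 15.8 CPM in DKO 5, 7 and 10, against 8.92, 7.56 and 7.90 CPM in WT 1, 2 and 3. Set 2 gave 14.4, 17.0 and 15.4 CPM in DKO 2, 3 and 4, 15.3, 15.9 and 15.4 CPM in Irx3KO 1, 2 and 4, 15.3, 10.7 and 11.2 CPM in dHet 2, 3 and 4, and 7.82, 7.74 and 9.42 CPM in Irx4KO 2, 3 and 4. All homozygous mutants were above all WT and Irx4KO libraries, dHet 2 was level with the homozygous mutants, and dHet 3 and 4 lay between. Bbs2 had log2 fold changes of 0.96 ± 0.14 in set 1 (1.94-fold, adjusted p = 0.0022) and 0.61 ± 0.10 in set 2 (1.53-fold, adjusted p = 0.033). The call in set 1 stood without each of the 18 libraries, but fitting set 1 by itself gave an adjusted p of 0.077. The call in set 2 stood without DKO 5, DKO 7, WT 1, WT 2, dHet 2, dHet 4 or Irx4KO 4 and was lost without each of the other 11 libraries (log2 fold change 0.57 to 0.71, adjusted p up to 0.18). With dHet left out it was 0.90 ± 0.12 (adjusted p = 0.0071), lost without Irx4KO 2 or 3 (adjusted p up to 0.15).

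The protein-coding transcript of Bbs2 held most of the gene's counts, 91.7% in DKO 5, 7 and 10 and 95.8% in WT. Its own log2 fold change was 0.92 ± 0.15 in set 1 (adjusted p = 0.020 over all transcripts), lost without any 1 WT library, and 0.60 ± 0.10 in set 2 (adjusted p = 0.12). Of 339 transcripts of the flanking genes, 4 were called in set 1, against 0.187% of all transcripts, and they belong to Bbs2, Mt3, Calr and Gnao1. In set 2 edgeR called 0 of 339, against 0.0132% of all transcripts. At an unadjusted p under 0.05 there were 37 of 339 (10.9%, against 6.36% of all transcripts).

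Mt2 moved the other way. Its level was 5.38, 2.58 and 1.35 CPM in DKO 5, 7 and 10, against 12.1, 4.41 and 11 CPM in WT 1, 2 and 3. Levels in set 2 were 1.88, 1.92 and 2.21 CPM in DKO 2, 3 and 4, 2.62, 1.93 and 1.72 CPM in Irx3KO 1, 2 and 4, 2.70, 7.03 and 5.67 CPM in dHet 2, 3 and 4, and 9.82, 9.39 and 8.93 CPM in Irx4KO 2, 3 and 4. In set 1 the groups overlapped through DKO 5 and WT 2, and in set 2 the 6 homozygous mutants lay below the 6 others, with dHet 2 just above them. Mt2 had log2 fold changes of -1.57 ± 0.45 in set 1 and -1.76 ± 0.33 in set 2, and both missed the threshold (adjusted p = 0.11 and 0.12). With dHet left out it was -2.19 ± 0.37 (adjusted p = 0.041), a call that stood without DKO 5, DKO 10, WT 2, dHet 2 or dHet 3 and was lost without each of the other 13 libraries (adjusted p up to 0.25). Mt2 overlaps Gm45774 on the other strand, and since the strand setting of the counting is not given, reads of the pair cannot be told apart here.

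Mt1 passed no test, and Mt4 was listed at 0 in all 18 libraries. Mt1 stood at 30.3, 17.8 and 10.3 CPM in DKO 5, 7 and 10, against 30.8, 15 and 28.3 CPM in WT 1, 2 and 3. Its mean in set 2 was 17.0 ± 1.8 CPM in DKO, 14.7 ± 2.87 CPM in Irx3KO, 18.7 ± 3.28 CPM in dHet and 23.6 ± 0.79 CPM in Irx4KO (SD, n = 3 each). Groups overlapped in set 1, and in set 2 Irx4KO was above the homozygous mutants. The log2 fold changes were -0.34 ± 0.32 and -0.41 ± 0.23 (adjusted p = 0.69 and 0.73). Of the 3 metallothioneins measured, Mt3 rose in set 1 and 0 passed in set 2 with edgeR. Of the 31-base words in their transcripts, 0 in Mt1 and Mt3 and 0.624% in Mt2 also occur in transcripts of another gene.

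**Figure D2:**
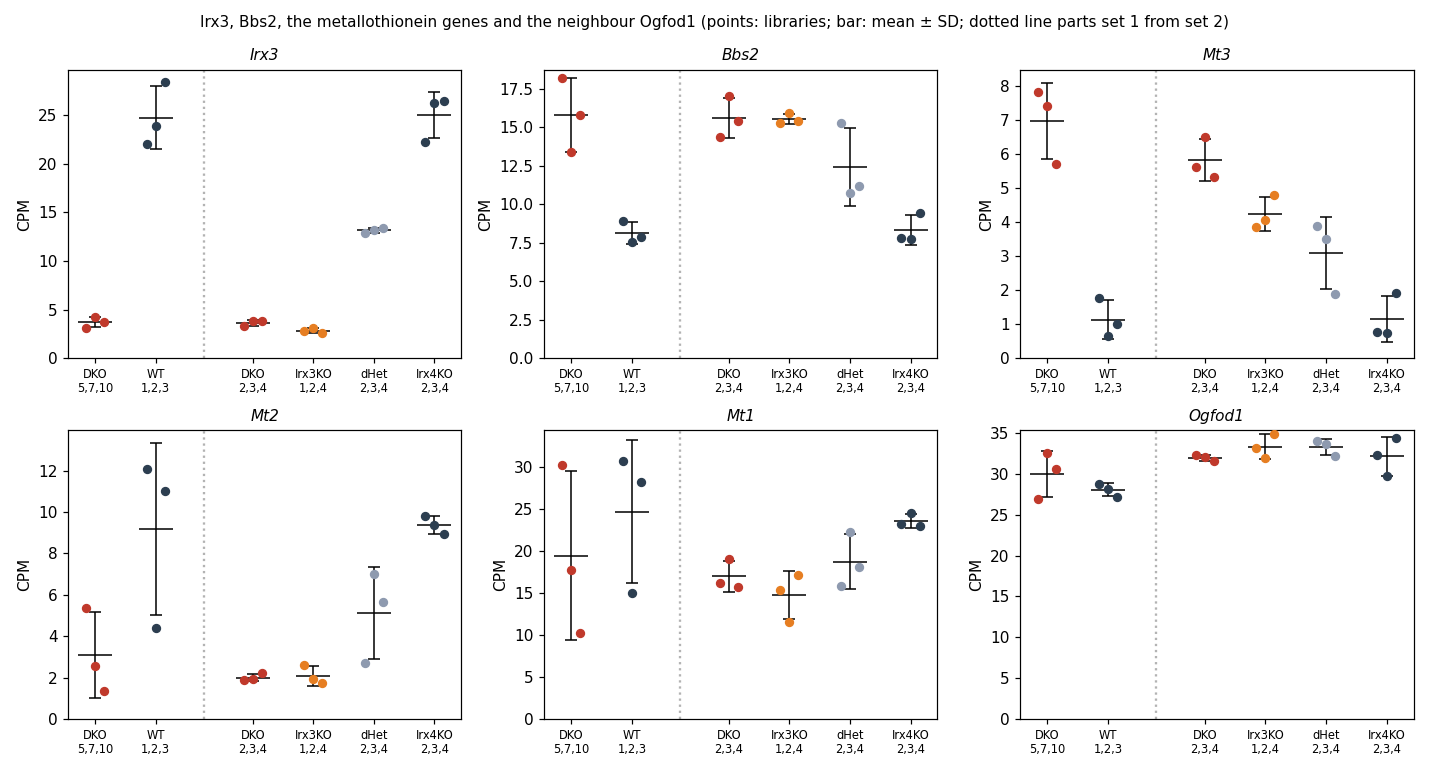
CPM of Irx3, Bbs2, Mt3, Mt2, Mt1 and the neighbour Ogfod1 in each of 18 libraries (points, 3 a group) with the mean and SD (bars), by group and set. Bbs2 and Mt3 are higher in the homozygous mutants than in WT and Irx4KO, Mt2 is lower in those of set 2 and overlaps WT in set 1, and Ogfod1 runs from 26.9 to 34.9 CPM over all libraries.

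Because dHet lay between the other groups of set 2, the number of labelled mutant Irx3 alleles (0, 1 or 2) was also fitted over all 18 libraries with a term for the set, a model added after the levels were seen. It called 4 of 137 flanking genes, against 0.0782% of all genes, which is 12 genes. Higher with each allele were Bbs2, Mt3 and Sall1 (3 of 137, against 0.0195% of all genes), and lower was Mt2 (1 of 137, against 0.0586%). Per allele, the log2 level changed by 0.46 ± 0.04 for Bbs2 (adjusted p = 1.6e-05), by 1.14 ± 0.13 for Mt3 (adjusted p = 2.1e-04) and by -0.97 ± 0.14 for Mt2 (adjusted p = 0.0031). These 3 calls stood without each of the 18 libraries in turn. The fit includes set 1, where the rise of Mt3 and Bbs2 was already known and the Irx4 labels also differ. It is therefore no independent support for that rise. Sall1 changed by 0.17 ± 0.03 per allele (adjusted p = 0.027). Its call was lost without any 1 of DKO 5, DKO 10, WT 1, WT 3, Irx3KO 1, Irx3KO 2 or Irx4KO 2, 3 or 4 (adjusted p up to 0.09).

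Taken alone, dHet against Irx4KO gave no call with edgeR: 0 of 137 passed, against 0.013% of all genes (0.00652% higher and 0.00652% lower). The labels of these groups also differ in Irx4. There were 11 of 137 at an unadjusted p under 0.05 (8.03%, against 5.46% of all genes). DESeq2 called 3, Bbs2, Mt3 and Cacna1a, and its share over all genes is not given here. The log2 fold changes were 1.45 ± 0.37 for Mt3, 0.58 ± 0.14 for Bbs2 and -0.87 ± 0.44 for Mt2 (adjusted p = 0.54, 0.44 and 0.94). Against the log2 midpoint of the homozygous mutants and Irx4KO, dHet stood at 0.39 ± 0.29 for Mt3, 0.13 ± 0.11 for Bbs2 and 0.22 ± 0.37 for Mt2 (adjusted p = 0.98, 0.98 and 0.99). In that comparison 0 of 137 were called with edgeR, against 0.0% of all genes. At an unadjusted p under 0.05 there were 7 of 137 (5.11%, against 5.41% of all genes). The dHet libraries spread widely, and dHet 2 had the highest Bbs2, the highest Mt3 and the lowest Mt2 of the 3. Its summed Y-linked counts were 4.64 CPM, against 152 and 164 CPM in dHet 3 and 4. The dHet libraries thus also differ in the sex of the embryo, whose part was not tested within them. The sums were low in WT 3 (8.61 CPM) and DKO 4 (3.2 CPM) too, so WT and the DKO libraries of set 2 were also mixed in sex.

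DKO and Irx4KO share the Irx4 label, while Irx3KO and Irx4KO differ in the labels of both genes. Set against Irx4KO one at a time, with the Irx4KO libraries shared, both genotypes with 2 mutant Irx3 alleles gave calls for Bbs2, Mt3 and Adgre5. In DKO 2, 3 and 4 these were the 3 calls of 137, against 0.0261% of all genes (2 higher, against 0.013%, and 1 lower, against 0.013%). Irx3KO gave 5 of 137, against 0.306% of all genes: Bbs2, Mt3 and Cacna1a higher (against 0.156%) and Adgre5 and Mylk3 lower (against 0.15%). The log2 fold change of Mt3 was 2.35 ± 0.37 in DKO and 1.90 ± 0.37 in Irx3KO (adjusted p = 0.036 and 0.035). That of Bbs2 was 0.91 ± 0.14 in DKO and 0.90 ± 0.14 in Irx3KO (adjusted p = 0.036 and 0.0062), and that of Mt2 was -2.23 ± 0.47 and -2.16 ± 0.47 (adjusted p = 0.25 and 0.066). In DKO, Bbs2 was called without DKO 2, 5 or 7, WT 1 or 2, any dHet library or Irx4KO 4, Mt3 without WT 1 or 2, dHet 2 or 4 or Irx4KO 4, and Adgre5 without DKO 5, WT 1 or 2, or dHet 2 or 4, and all were lost without each of the others. In Irx3KO, calls were lost for Bbs2 without Irx4KO 2 or 3, and for Mt3 without DKO 2 or 3, any Irx3KO library, dHet 3, or Irx4KO 2 or 3. Those of Adgre5 were lost without Irx3KO 2 or Irx4KO 3, and those of Mylk3 without any 1 Irx3KO or Irx4KO library.

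DKO 2, 3 and 4 against Irx3KO, both with 2 mutant Irx3 alleles, gave no call for these genes. The log2 fold change was 0.45 ± 0.34 for Mt3, 0.01 ± 0.14 for Bbs2 and -0.06 ± 0.48 for Mt2 (adjusted p = 0.84, 1.0 and 0.99). Cacna1a was the 1 call of 137 and was lower in DKO, against 0.45% of all genes called and 0.261% called lower. An exact two-sided permutation test on log2(CPM + 0.5) gave p = 0.1 for Mt3 and for Bbs2 in set 1, the smallest that 3 against 3 allows. In set 2 the exact permutation p was 0.00433 for each. For Mt2 the exact permutation p was 0.2 in set 1 and 0.00216 in set 2, the smallest that 6 against 6 allows. By the same test Adgre5 had 0.4 and 0.00216, Sall1 had 0.1 and 0.00866, and Cacna1a had 0.3 and 0.123. These p-values are not adjusted, and the genes were chosen with earlier results known. In set 2 the test permutes libraries across all genotypes of that set.

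**Figure D3:**
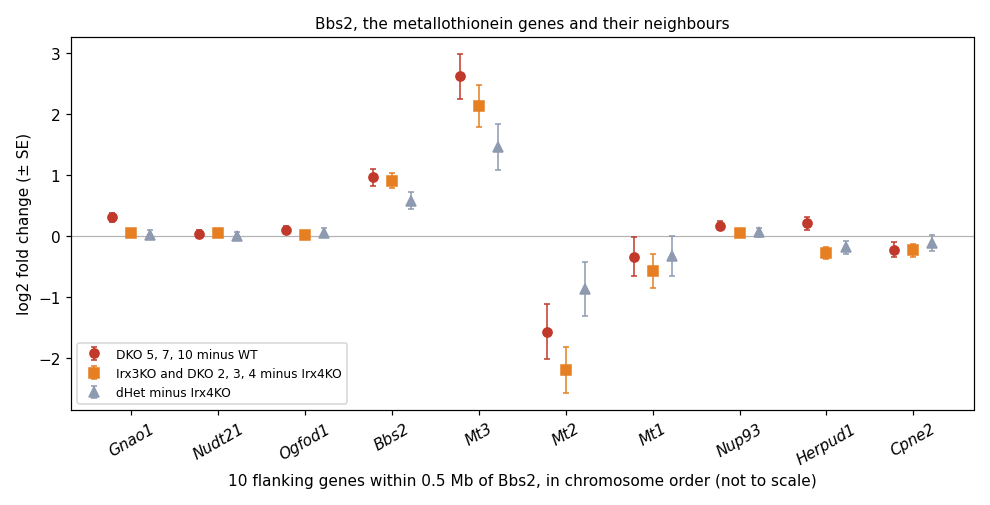
Log2 fold change (± SE, edgeR) of 10 flanking genes within 0.5 Mb of Bbs2, in chromosome order, in 3 comparisons: DKO 5, 7, 10 minus WT, Irx3KO and DKO 2, 3, 4 minus Irx4KO, and dHet minus Irx4KO. Bbs2 and Mt3 lie above 0 and Mt2 below 0 in all 3, with the dHet value nearest to 0, while Nudt21, Ogfod1 and Nup93 lie within 0.17 of 0.

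The genes named here on either side of this stretch did not pass in either set. Of the 11 flanking genes within 0.5 Mb of Bbs2, 2 were called in set 1 (Bbs2 and Mt3, where 1.58% of all genes were called), 1 in set 2 (Bbs2, against 0.0261%) and 3 in the allele model (Bbs2, Mt3 and Mt2, against 0.0782%). At an unadjusted p under 0.05 there were 5 of these 11 in set 1, 4 in set 2 and 7 in the allele model. The shares of all genes were 14.4%, 7.55% and 10.4%, and the counts include the called genes. Ogfod1, a prolyl hydroxylase that acts on a ribosomal protein, stood at 26.9, 32.5 and 30.6 CPM in DKO 5, 7 and 10, against 28.8, 28.1 and 27.2 CPM in WT 1, 2 and 3. These overlap, and its log2 fold changes were 0.10 ± 0.07 in set 1 and -0.004 ± 0.05 in set 2 (adjusted p = 0.58 and 1.0). Nup93, a nuclear pore protein, had 0.17 ± 0.07 and 0.02 ± 0.05 (adjusted p = 0.31 and 0.96). Nudt21, a factor in the choice of polyadenylation site, had 0.04 ± 0.07 and 0.04 ± 0.05 (adjusted p = 0.86 and 0.88). Gnao1, the alpha subunit of a G protein abundant in neurons, came nearest to the threshold, with 0.30 ± 0.08 in set 1 (adjusted p = 0.052) and 0.04 ± 0.05 in set 2 (adjusted p = 0.89). Cpne2 stood at 5.54 to 6.15 CPM in DKO 5, 7 and 10, against 6.32 to 7.23 CPM in WT. Herpud1 stood at 35.3 to 42.5 CPM in the homozygous mutants of set 2, against 46.2 to 47.9 CPM in Irx4KO. These groups did not overlap, as for 15.2% of all genes in set 1 and 5.26% in set 2. In dHet, Herpud1 ran from 39.5 to 42.7 CPM and overlapped the homozygous mutants.

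The genes nearest to Irx3 gave no call in either set. These were Fto, Rpgrip1l, Aktip and Rbl2, at -0.48 to -0.73 Mb (lower coordinates), and Mmp2, Lpcat2, Slc6a2 and Ces5a, at 1.03 to 1.70 Mb (higher ones). Fto, an RNA demethylase whose introns are known to hold enhancers that act on Irx3, stood at 138, 128 and 122 CPM in DKO 5, 7 and 10, against 132, 129 and 127 CPM in WT 1, 2 and 3. The groups overlapped, and the log2 fold changes were -0.003 ± 0.05 in set 1 and -0.045 ± 0.04 in set 2 (adjusted p = 0.99 and 0.81). Rpgrip1l, a protein of the ciliary transition zone, stood at 10.8, 13.8 and 16.1 CPM in DKO 5, 7 and 10, against 18.4, 16.3 and 17.2 CPM in WT. In set 2 it ran from 18.1 to 21.4 CPM in the homozygous mutants, against 21.9 to 25.1 CPM in dHet and Irx4KO. It was the 1 flanking gene of 137 whose groups stayed apart in the same direction in both sets with dHet included, against 0.0782% of all genes. It did not pass the test (log2 fold change -0.35 ± 0.11 and -0.19 ± 0.08, adjusted p = 0.14 and 0.62). The value of Rpgrip1l in set 1 was unstable: it was -0.21 without DKO 5, -0.49 without DKO 10 (adjusted p = 0.02, past the threshold) and -0.061 with counts rebuilt from TPM. The other 6 had log2 fold changes from -1.19 (Ces5a, under 1 CPM in every library) to 0.33 (Slc6a2) in set 1 and from -0.56 (Slc6a2) to 0.14 (Mmp2) in set 2, with no adjusted p below 0.28.

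Adgre5, the adhesion receptor CD97 of leukocytes, lies at -8.08 Mb from Irx3 (negative distances run to lower coordinates) and was lower in the homozygous mutants of set 2. Its level was 51.3, 56.5 and 52.7 CPM in DKO 2, 3 and 4 and 55.8, 51.5 and 54.3 CPM in Irx3KO, against 67.3, 59.8 and 62.5 CPM in dHet and 73.3, 75 and 74.7 CPM in Irx4KO. The homozygous mutants lay below all others, and dHet lay between them and Irx4KO. The log2 fold change was -0.35 ± 0.05 (adjusted p = 0.023), lost without any 1 of DKO 2 or 4 or any Irx3KO or Irx4KO library (adjusted p up to 0.12). In set 1 Adgre5 stood at 57.3, 52.1 and 53.7 CPM in DKO 5, 7 and 10, against 61.8, 50.1 and 61.6 CPM in WT, groups that overlap (-0.09 ± 0.08, adjusted p = 0.63). The difference between the sets was 0.26 ± 0.09 and did not pass (adjusted p = 0.29). Macrophage markers summed to 82.6 to 89.0 CPM in DKO and 91.2 to 108 CPM in Irx3KO, against 78.5 to 97.6 CPM in dHet and 81.8 to 94.0 CPM in Irx4KO, with 8 of 8 found and 0 called. In set 1 they summed to 90.6 to 126 CPM in DKO, against 111 to 196 CPM in WT. There 1 of the 8 was called, against 1.58% of all genes. Adgre5 overlaps Ddx39 on the other strand.

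Cacna1a, the pore subunit of a neuronal calcium channel, was highest in Irx3KO; it was named after its values were seen. It stood at 10.3, 10.7 and 10.3 CPM in DKO 2, 3 and 4, 14.2, 14.3 and 16.1 CPM in Irx3KO, 11.9, 12.1 and 12.1 CPM in dHet, and 9.24, 9.47 and 8.87 CPM in Irx4KO. The 4 groups did not overlap. Irx3KO was the only group of set 2 without a labelled mutant Irx4 allele. By label, it differs from DKO in Irx4 alone and from Irx4KO in both genes. The log2 fold change was -0.51 ± 0.08 in DKO against Irx3KO (adjusted p = 0.0071), lost without Irx3KO 4, and 0.69 ± 0.08 in Irx3KO against Irx4KO (adjusted p = 8.2e-04). In set 1 its groups overlapped, at 11.2, 10.2 and 10.7 CPM in DKO 5, 7 and 10 against 11.1, 11.4 and 10.9 CPM in WT (-0.06 ± 0.08, adjusted p = 0.80).

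The other 3 genes called in set 1, Mylk3, Calr and Rnf150, lie at -6.47, -6.96 and -8.94 Mb from Irx3 and were not called in set 2. Mylk3, the cardiac myosin light chain kinase, stood at 364, 399 and 384 CPM in DKO 5, 7 and 10, against 313, 286 and 347 CPM in WT (log2 fold change 0.28 ± 0.07, adjusted p = 0.046). In set 2 it ran from 346 to 364 CPM in DKO and from 282 to 299 CPM in Irx3KO, against 312 to 350.0 CPM in dHet and 360.0 to 380.0 CPM in Irx4KO (homozygous mutants against the others -0.12 ± 0.05, adjusted p = 0.60). The log2 fold change of Mylk3 against Irx4KO was -0.06 ± 0.07 in DKO and -0.37 ± 0.07 in Irx3KO (adjusted p = 0.96 and 0.022). The low values of set 2 were those of Irx3KO, the only group there without a labelled mutant Irx4 allele. By label DKO and Irx3KO differ in Irx4 alone. DKO 2, 3 and 4 against Irx3KO gave 0.31 ± 0.07, which missed the threshold (edgeR, adjusted p = 0.053). Why Irx3KO was low was not tested. Mylk3 was the 1 flanking gene of 137 for which the contrasts of the sets differed, by 0.40 ± 0.08 (adjusted p = 0.039), where 0.639% of all genes were called and 0.293% were called higher in set 1. These contrasts are unlike in their Irx4 labels. Calr, a calcium-binding chaperone of the endoplasmic reticulum, stood at 856, 1030.0 and 863 CPM in DKO 5, 7 and 10, against 673, 754 and 705 CPM in WT (0.37 ± 0.09, adjusted p = 0.048). Rnf150, a RING-finger protein, stood at 9.52, 12.2 and 13.7 CPM in DKO 5, 7 and 10, against 15.3, 17.0 and 19.5 CPM in WT (-0.55 ± 0.12, adjusted p = 0.027). The groups of set 1 did not overlap for any of the 3. In set 2 Calr averaged 840.0 ± 91.9 CPM in DKO, 735 ± 31.1 CPM in Irx3KO, 774 ± 78.6 CPM in dHet and 845 ± 9.55 CPM in Irx4KO (SD, n = 3 each). Calr and Mylk3 thus had their lowest mean of set 2 in Irx3KO, and DKO did not differ from Irx4KO past the threshold (adjusted p = 0.99 for Calr).

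These 3 calls were less firm than those of Mt3 and Bbs2. Mylk3 was called without DKO 3, DKO 5, WT 3, dHet 2 or dHet 3 and lost without each of the other 13 libraries (adjusted p up to 0.16). Calr was called without DKO 3, DKO 5, DKO 10 or dHet 3 and lost without each of the other 14 (adjusted p up to 0.20). Rnf150 was lost without DKO 7, WT 2 or WT 3 (adjusted p up to 0.13). Atrial markers summed to 3730.0 to 4240.0 CPM in DKO 5, 7 and 10, against 2470.0 to 3270.0 CPM in WT. Of these, 5 of 5 were found and 3 were called, against 1.58% of all genes. The part of the atrial markers in the calls of Mylk3, Calr and Rnf150 was not tested.

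**Figure D4:**
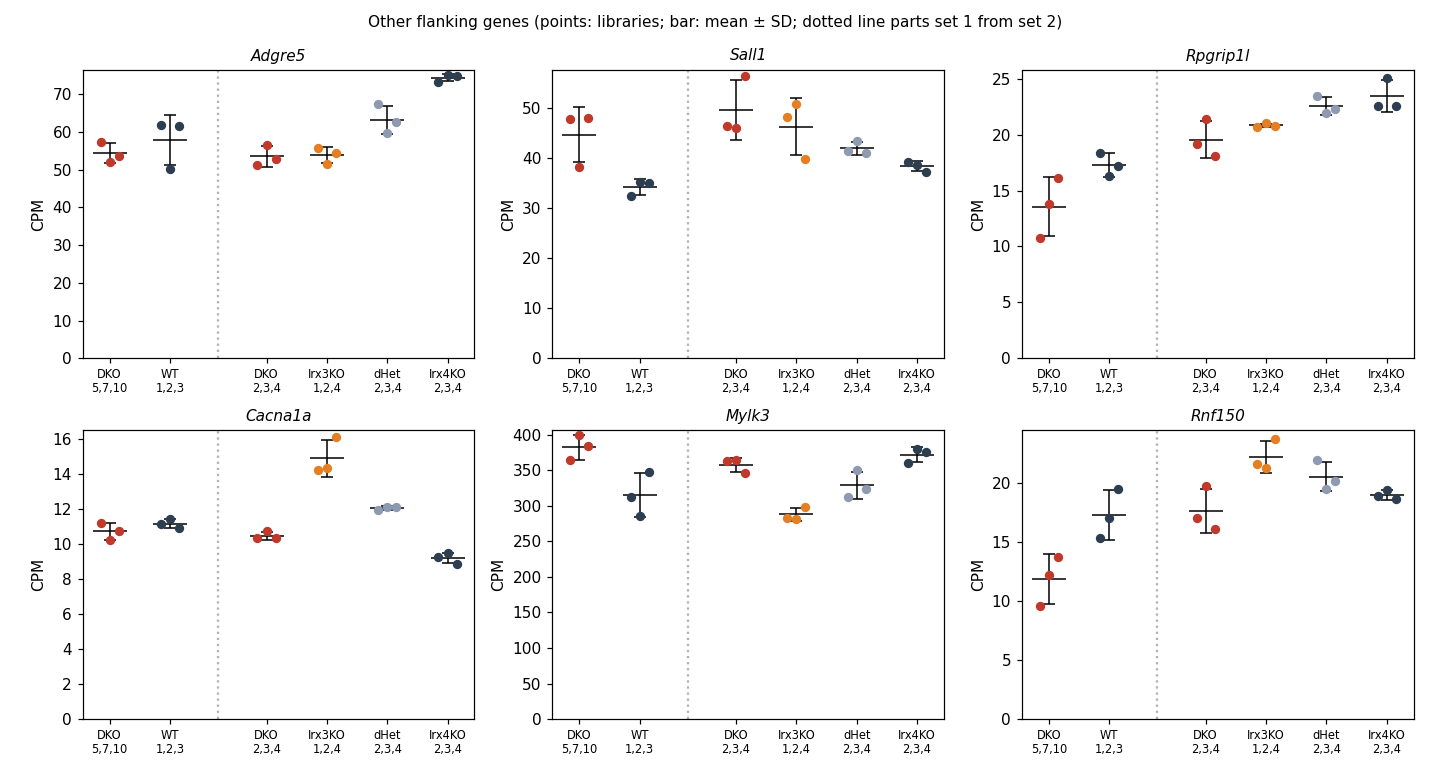
CPM of Adgre5, Sall1, Rpgrip1l, Cacna1a, Mylk3 and Rnf150 in each of 18 libraries (points, 3 a group) with the mean and SD (bars), by group and set. In set 2 Adgre5 is lowest in DKO and Irx3KO and highest in Irx4KO, and Cacna1a is highest in Irx3KO at 14.2 to 16.1 CPM.

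Sall1, a zinc-finger transcription factor at -2.77 Mb from Irx3, was higher in every homozygous mutant than in every WT or Irx4KO library of its set. It stood at 47.8, 38.3 and 48.0 CPM in DKO 5, 7 and 10, against 32.5, 35.3 and 35.0 CPM in WT. In set 2 it stood at 46.4, 46.0 and 56.5 CPM in DKO and 48.2, 50.9 and 39.9 CPM in Irx3KO, against 41.5, 43.5 and 41.0 CPM in dHet and 39.3, 38.7 and 37.3 CPM in Irx4KO. Irx3KO 4 lay below the dHet libraries. The log2 fold changes were 0.38 ± 0.10 and 0.25 ± 0.07 (adjusted p = 0.068 and 0.41). With dHet left aside, 7 of 137 genes kept their groups apart in the same direction in both sets (5.11%, against 0.502% of all genes): Bbs2, Mt3, Sall1, Rpgrip1l, Gipc1, Tox3 and Polr2c. Gipc1, an adaptor in membrane-protein traffic, had 0.14 ± 0.06 and 0.19 ± 0.04 (adjusted p = 0.31 and 0.27). Tox3, an HMG-box protein, had 0.25 ± 0.08 and 0.12 ± 0.06 (adjusted p = 0.14 and 0.67). Polr2c, a subunit of RNA polymerase II, had 0.22 ± 0.06 and 0.09 ± 0.04 (adjusted p = 0.067 and 0.68).

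Most of the 137 flanking genes moved little. Their median absolute log2 fold change was 0.114 in set 1 (0.116 over all genes) and 0.077 in set 2 (0.067 over all genes). At an unadjusted p under 0.05 there were 28 of 137 in set 1 (20.4%, against 14.4% of all genes) and 24 of 137 in set 2 (17.5%, against 7.55%). In set 1 the groups did not overlap for 32 of 137 (23.4%, against 15.2% of all genes). In set 2 homozygous mutants did not overlap Irx4KO for 25 of 137 (18.2%, against 5.26%), and did not overlap Irx4KO and dHet together for 5, which were Adgre5, Gadd45gip1, Lyl1, Mt2 and Rpgrip1l (3.65%, against 0.619%). The log2 fold changes had the same sign in both sets, which share no library, for 85 of 137 genes (62.0%) and for 55.8% of all genes. Across genes, Spearman's rho between the sets was 0.352 for the 137 and 0.122 for all, as a description.

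**Figure D5:**
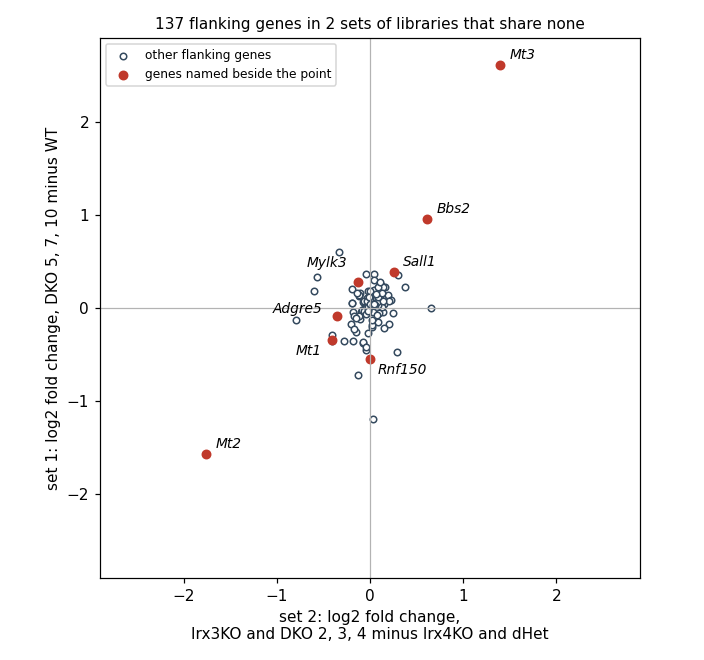
Log2 fold change of each of the 137 flanking genes in set 1 (DKO 5, 7, 10 minus WT, vertical) against set 2 (Irx3KO and DKO 2, 3, 4 minus Irx4KO and dHet, horizontal). Mt3 (2.61 and 1.40) and Bbs2 (0.96 and 0.61) lie to the upper right and Mt2 (-1.57 and -1.76) to the lower left of the other genes.

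By distance from Irx3, the calls lay beyond 2 Mb, but a count of 0 among the few genes nearer to it is close to the background. The 10 genes within 2 Mb held 0 calls in set 1, set 2 and the allele model, where 1.58%, 0.0261% and 0.0782% of all genes were called. At an unadjusted p under 0.05 there were 4 of these 10 in set 1, 3 in set 2 and 4 in the allele model, against 14.4%, 7.55% and 10.4% of all genes. At 2 to 5 Mb, the 39 genes at higher coordinates held 2 calls in set 1, 1 in set 2 and 3 in the allele model, and the 12 at lower coordinates held 0, 0 and 1. At 5 to 10 Mb, the 75 genes at lower coordinates held 3, 1 and 0.

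Of the listed genes that work with these, no gene beyond the flanking ones already named was called, where 1.58% of all genes were called in set 1 and 0.0261% in set 2. In lists this short a count of 0 is near that background and is no result about the list. Of 12 measured genes of the BBSome and its chaperones, Bbs2 rose in both sets and the other 11 did not pass, and the median log2 fold change of the 12 was -0.05 in set 1 and -0.02 in set 2. The BBSome subunits Bbs1, Bbs4 and Bbs9 had -0.21, -0.08 and -0.24 in set 1 (adjusted p = 0.33, 0.84 and 0.48). In set 2 they had 0.03, 0.01 and 0.06 (adjusted p = 0.95, 0.99 and 0.93). The subunits Bbs5, Bbs7 and Ttc8 had 0.0, -0.02 and -0.08 in set 1. Of 9 genes outside the region tied to the metal response, 0 passed in either set (edgeR; median -0.04 and -0.02). Among them the transcription factor Mtf1 had 0.02 and -0.16 and the zinc exporter Slc30a1 had -0.11 and -0.07 (adjusted p = 0.95, 0.59, 0.42 and 0.76). Within the region, 0 of the 5 genes from Fto to Chd9 passed in either set, and of 7 cilium genes Bbs2 passed in both. Of 16 genes listed under transcription and chromatin, some of which have other functions, 0 passed in either set. Of 5 genes of protein folding and stress Calr passed in set 1, and of 12 genes of kinases, G proteins and calcium Mylk3 passed in set 1. Of 4 chemokine and immune genes, a list that overlaps the one of transcription and chromatin, 0 passed.

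Whether Bbs2, Mt3 and Mt2 changed through the mutant Irx3 locus on the same chromosome, through flanking DNA of another strain, or through the loss of Irx3 protein was not tested. The tables used here hold no counts per allele. Between homozygous mutants and the other libraries, the mutation and the chromosome that carries it cannot be told apart.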

How the data were processed

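The authors deposited 1 table per library with estimated counts and TPM for each transcript, per the file headers. Per the submitters' processing notes, kallisto 0.42.2 and mm9 were used. Neither the transcript annotation nor any strand option is given in the sources used here, and the labels' protocols name a directional library kit. The deposited TPM served for an alternative with rebuilt counts, and the deposited transcript lengths (other values) for a check of length trends.

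Of 88943 transcripts, 78030 (87.73%) matched GENCODE M21 (GRCm38). Estimated counts were summed per gene and rounded, and library totals ran from 26721576 to 45946741. Genes with at least 0.5 CPM in 3 libraries were tested with edgeR 4.0.16 under R 4.3.3 (quasi-likelihood, TMM, prior count 0.125), in 1 model of all 18 libraries with a mean per genotype in each set, with Benjamini-Hochberg adjustment over 15347 genes at 0.05. Each SE was derived from the F statistic. Replicates differed by more than sampling noise (chi-square per gene from 6.47 between Irx3KO 1 and 2 to 65.7 between DKO 5 and 7, within a genotype and set). Each library's trend of deviations with transcript length had Spearman's rho of -0.459 to -0.252 in set 1 and 0.043 to 0.413 in set 2. The scripts were tested on simulated data.

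The members, sets, lists and comparisons were chosen with earlier results of these data known. The rule for named genes was Irx3, the metallothioneins, Bbs2, the 4 nearest measured genes on each side, genes called in both sets and up to 5 called in 1 set. Genes within 0.5 Mb of Bbs2, Cacna1a, Sall1, Gipc1, Tox3, Polr2c, Gadd45gip1 and Lyl1 were named after their values were seen. Promoters come from RefSeq (GRCm38.p6), with rows for 107 flanking genes. The values of 1 flanking gene are not reported here. Alternatives were DESeq2 1.42.0, RLE factors, other filters, counts rebuilt from TPM, a covariate for embryo sex, removal of the length trend, each set alone, a replicate block, a 5 Mb window and leaving out each library.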

Additional observations from a re-analysis of the deposited data

Results flagged for a closer look

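Mylk3 differed between the contrasts of the sets: its log2 fold change in DKO 5, 7 and 10 against WT exceeded that of the homozygous mutants against the other libraries of set 2 by 0.40 ± 0.08 (edgeR, adjusted p = 0.039). The call stood without DKO 5, DKO 10, WT 3, dHet 2, dHet 4 or Irx4KO 2 and was lost without each of the other 12 libraries. The contrasts are unlike in their Irx4 labels. DKO and WT differ in Irx4, while set 2 has labelled Irx4 mutants on both sides. The parts of the Irx4 labels and of the library sets cannot be told apart.

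Aktip, a gene at -0.69 Mb from Irx3, stood at 32.9 CPM in dHet 2, far from the other 5 dHet and Irx4KO libraries of set 2. Such gaps were looked for in 42 groups of values, and chance gives one in about 1 of 20.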

How the results depend on the processing

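No direction of a named log2 fold change that passed the test was reversed under any alternative run. The number of the 137 flanking genes called moved as follows. In DKO 5, 7 and 10 against WT (5), it was 9 with DESeq2, 1 (Mt3) with the libraries of set 1 alone, 3 with counts rebuilt from TPM, 2 (Bbs2 and Mt3) with a covariate for embryo sex, 2 within 5 Mb, and 3 to 10 without 1 library. For homozygous mutants against the others in set 2 (2), it was 6 with DESeq2, 0 with counts rebuilt from TPM, 1 (Bbs2) within 5 Mb, 5 with dHet left out, and 0 to 4 without 1 library. For dHet against Irx4KO (0) it was 3 with DESeq2. For Irx3KO against Irx4KO (5) it was 9 with DESeq2, 10 with set 2 alone and 1 to 7 without 1 library. For DKO 2, 3 and 4 against Irx4KO (3) it was 5 with DESeq2 and 0 to 3 without 1 library, and against Irx3KO (1) it was 4 with DESeq2, 3 with set 2 alone and 0 to 3 without 1 library. The difference between the sets (1) gave 3 with DESeq2, 0 with rebuilt counts, 0 with the sex covariate, 2 with the length trend removed and 0 to 2 without 1 library. The allele model (4) gave 3 to 6 without 1 library. Transcript calls ran from 0 to 10 in set 1 (4) and from 0 to 1 in set 2 (0) without 1 library. The causes of these moves were not tested. The share of all genes called under each alternative is not given here, so these counts cannot be set against a background.

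Same-numbered libraries of different genotypes in set 2 had correlations of deviations from -0.304 to 0.134 (15 pairs, median 0.013). Those with different numbers had -0.248 to 0.324 (39 pairs, median -0.002). The labels do not say whether a shared number means a shared litter or processing, and these correlations cannot exclude it. With the replicate block in set 2 alone, the calls were 0 for homozygous mutants against the others (Bbs2 adjusted p = 0.32), 1 (Cacna1a) for Irx3KO against Irx4KO, 0 for DKO against Irx4KO, 0 for DKO against Irx3KO and 0 for dHet against Irx4KO. Set 1 shares no replicate numbers. Depth limits Mt3, near 1 CPM in WT and Irx4KO, more than Bbs2.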
